A study of Homo sapiens with 4 samples.

Results

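The interferon-stimulated genes described here are 34 genes that type I and type III interferons induce, chosen by symbol from the 60302 genes of an FPKM table (fragments scaled for gene length and sequencing depth). Each symbol matched 1 row, so all 34 were found. The table comes from 4 libraries of HMLE cells, human mammary epithelial cells immortalized with telomerase and the SV40 early region. In 2 libraries the cells stably expressed a short hairpin RNA against hnRNPF (hnRNPF KD 1 and 2), and in the other 2 a non-specific hairpin (control 1 and 2). The cells of all 4 libraries carry a lentiviral vector, and no untransduced or interferon-treated cells were analysed here. Whether the libraries of 1 group stem from independent infections or hairpins is not in the labels, so a p-value covers the spread among these 4 libraries and nothing wider. The study concerns RNA G-quadruplexes and splicing through hnRNPF. The comparison here asks whether levels of interferon-stimulated genes differed when hnRNPF was depleted, gene by gene and library by library.

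HNRNPF itself stood at 18.7 and 16.6 FPKM in the hnRNPF KD libraries, against 154 and 153 FPKM in the controls, so every library matched its label. It was the only gene with an adjusted p under 0.05 among the 13110 genes tested, those averaging 1 FPKM or more (limma, log2 fold change -3.05, SE 0.0986, adjusted p = 0.0251). That call was lost without control 1, without control 2, without a filter on low values, without the intensity trend and with the replicate number as a block. Read from the smallest step between low values of genes with a single exon, depth was about 80600000 and 85000000 fragments in the hnRNPF KD libraries and 77400000 and 84200000 in the controls. Genes reaching 1 FPKM numbered 13390 and 12854 in the hnRNPF KD libraries and 13228 and 12664 in the controls. Basal keratins were abundant: the 6 basal mammary markers summed to 9441 and 10544 FPKM in hnRNPF KD and 7434 and 11143 FPKM in the controls. Of 4 further epithelial markers, KRT18 was at 121 and 146 FPKM in hnRNPF KD, against 172 and 177 FPKM in the controls, and EPCAM at 38.6 and 38.9 FPKM in hnRNPF KD, against 56.4 and 45.9 FPKM in the controls. Both lay lower in both hnRNPF KD libraries, with log2 fold changes of -0.39 and -0.38 that did not pass (limma, adjusted p = 0.782 and adjusted p = 0.805). The remaining markers went the other way. KRT8 was at 290 and 303 FPKM in hnRNPF KD, against 248 and 289 FPKM in the controls (log2 fold change 0.14). CDH1 was at 46.0 and 90.0 FPKM in hnRNPF KD, against 37.6 and 48.1 FPKM in the controls, with overlap (log2 fold change 0.59). Neither passed (limma, adjusted p = 0.947 and adjusted p = 0.913). PTPRC, the pan-leukocyte phosphatase, stayed under 0.039 FPKM in all 4 libraries, and CD3E and CLEC4C were listed at 0 in all of them. Summed over 7 leukocyte markers the level was 12.8 and 12.3 FPKM in hnRNPF KD and 13.3 and 13.2 FPKM in the controls, most of it CD68. The monocyte marker CD14 was at 1.43 and 0.699 FPKM in hnRNPF KD and 1.15 and 0.535 FPKM in the controls. Of 6 fibroblast markers COL1A1 alone averaged 1 FPKM or more, at 11.5 and 12.3 FPKM in hnRNPF KD and 10.4 and 9.24 FPKM in the controls, and no endothelial marker exceeded 0.057 FPKM.

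Interferons are secreted when cells sense foreign or misplaced nucleic acid. Type I and type III interferons bind separate receptors, which both use the kinases JAK1 and TYK2 to phosphorylate STAT proteins. With IRF9, STAT2 takes part in the complex ISGF3, which binds the interferon-stimulated response element (ISRE) in target promoters. The induced proteins block viral entry, translation and replication, and several of them, STAT2, IRF9 and IRF7 included, feed back into the pathway. Epithelial cells keep a low level of many of these genes without added interferon.

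RefSeq promoter sequences (GRCh38.p14, 250 bases before to 50 after the gene start) matched 28 of the 34 members. IFIT2, OAS2, OASL, USP18, MX2 and IRF7 had no entry. The ISRE core was searched as GAAA, any 2 bases and again GAAA, on both strands, with overlapping matches counted separately. It was present in 17 of the 28 promoters (60.7%), against 3.65% of all 27305 promoters of the same length, and 13 of the 28 held more than 1 match. The interferon-gamma activated sequence, searched as TTC, any 3 bases and GAA, which reads the same on both strands, was in 8 of the 28 (28.6%), against 7.88% of all promoters. A match is only a run of letters and was not tested as a binding site.

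The promoters of 6 members are shown as examples. IFI6, ISG15, SAMD9 and HERC6 had the smallest p-values of the set. IFIT1 and IFITM1 are 2 of the 7 tested members that differed by 2-fold or more between the controls. Capitals mark matches to the ISRE core or its reverse complement. IFI6 has 3 matches, their first bases at -156, -115 and -93 from the gene start, and ISG15 has 2 that overlap, at -113 and -107. SAMD9 has 1 at -136, and HERC6 has none in this window. IFIT1 has 2 on the opposite strand at -116 and -103, and IFITM1 has 2 at -40 and -6. The windows lie at chr1:27672143-27672442 (minus strand, IFI6), chr1:1013247-1013546 (plus, ISG15), chr7:93117930-93118229 (minus, SAMD9), chr4:88378602-88378901 (plus, HERC6), chr10:89392373-89392672 (plus, IFIT1) and chr11:313790-314089 (plus, IFITM1).
IFI6: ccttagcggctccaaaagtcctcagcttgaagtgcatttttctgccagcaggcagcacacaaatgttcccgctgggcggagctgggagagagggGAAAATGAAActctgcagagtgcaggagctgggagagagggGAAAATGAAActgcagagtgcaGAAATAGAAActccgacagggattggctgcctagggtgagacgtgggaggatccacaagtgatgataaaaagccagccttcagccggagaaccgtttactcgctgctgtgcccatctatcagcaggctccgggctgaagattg
ISG15: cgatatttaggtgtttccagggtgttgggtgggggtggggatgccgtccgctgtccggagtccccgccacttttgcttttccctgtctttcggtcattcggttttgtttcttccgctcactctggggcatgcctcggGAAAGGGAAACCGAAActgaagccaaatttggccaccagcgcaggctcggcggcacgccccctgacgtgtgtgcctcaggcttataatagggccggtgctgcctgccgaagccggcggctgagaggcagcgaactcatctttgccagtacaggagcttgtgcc
SAMD9: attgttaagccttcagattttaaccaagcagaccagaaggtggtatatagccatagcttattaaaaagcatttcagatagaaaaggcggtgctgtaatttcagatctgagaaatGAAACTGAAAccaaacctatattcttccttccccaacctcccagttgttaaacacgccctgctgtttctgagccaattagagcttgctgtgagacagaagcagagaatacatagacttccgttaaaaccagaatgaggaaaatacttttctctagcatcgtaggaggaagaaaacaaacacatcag
HERC6: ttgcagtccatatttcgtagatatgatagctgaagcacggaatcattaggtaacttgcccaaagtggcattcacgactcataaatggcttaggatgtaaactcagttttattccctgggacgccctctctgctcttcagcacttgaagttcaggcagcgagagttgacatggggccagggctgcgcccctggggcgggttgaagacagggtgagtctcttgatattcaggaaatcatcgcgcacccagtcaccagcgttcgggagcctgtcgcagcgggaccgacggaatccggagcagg
IFIT1: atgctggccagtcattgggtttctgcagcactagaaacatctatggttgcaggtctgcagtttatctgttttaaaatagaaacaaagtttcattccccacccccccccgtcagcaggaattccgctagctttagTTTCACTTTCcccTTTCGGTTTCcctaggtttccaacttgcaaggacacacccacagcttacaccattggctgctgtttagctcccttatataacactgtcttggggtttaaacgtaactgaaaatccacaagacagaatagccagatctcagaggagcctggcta
IFITM1: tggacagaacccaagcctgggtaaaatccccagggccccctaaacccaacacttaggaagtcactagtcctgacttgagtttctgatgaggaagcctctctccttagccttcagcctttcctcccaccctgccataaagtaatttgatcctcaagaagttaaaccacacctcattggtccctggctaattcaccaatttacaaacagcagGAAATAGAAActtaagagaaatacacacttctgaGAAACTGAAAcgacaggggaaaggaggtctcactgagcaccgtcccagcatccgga

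None of the interferon-stimulated genes passed the adjusted threshold in either direction. Of the 34, 29 reached the mean of 1 FPKM and were tested, as log2(FPKM + 1), a scale that understates the change of low genes. The counts were 0 of 29 higher and 0 of 29 lower in hnRNPF KD (limma with Benjamini-Hochberg adjustment), against 0.0% and 0.00763% of all tested genes. Adjusted p-values of the 29 lay between 0.772 and 0.999. At an unadjusted p under 0.05, 4 members were higher (SAMD9, IFI6, HERC6 and ISG15) and 0 were lower, against 3.06% and 3.02% of all tested genes. The log2 fold change was above 0 for 22 of the 29, against 50.2% of all tested genes. Its median was 0.19, against 0.00 over all tested genes. Both hnRNPF KD libraries lay above both controls for 10 of the 29, against 17.5% of all tested genes, and below both for 2, against 17.1%. The groups overlapped for the other 17. No permutation test was made, since with 2 libraries against 2 the smallest exact p is 0.333.

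**Figure D1:**
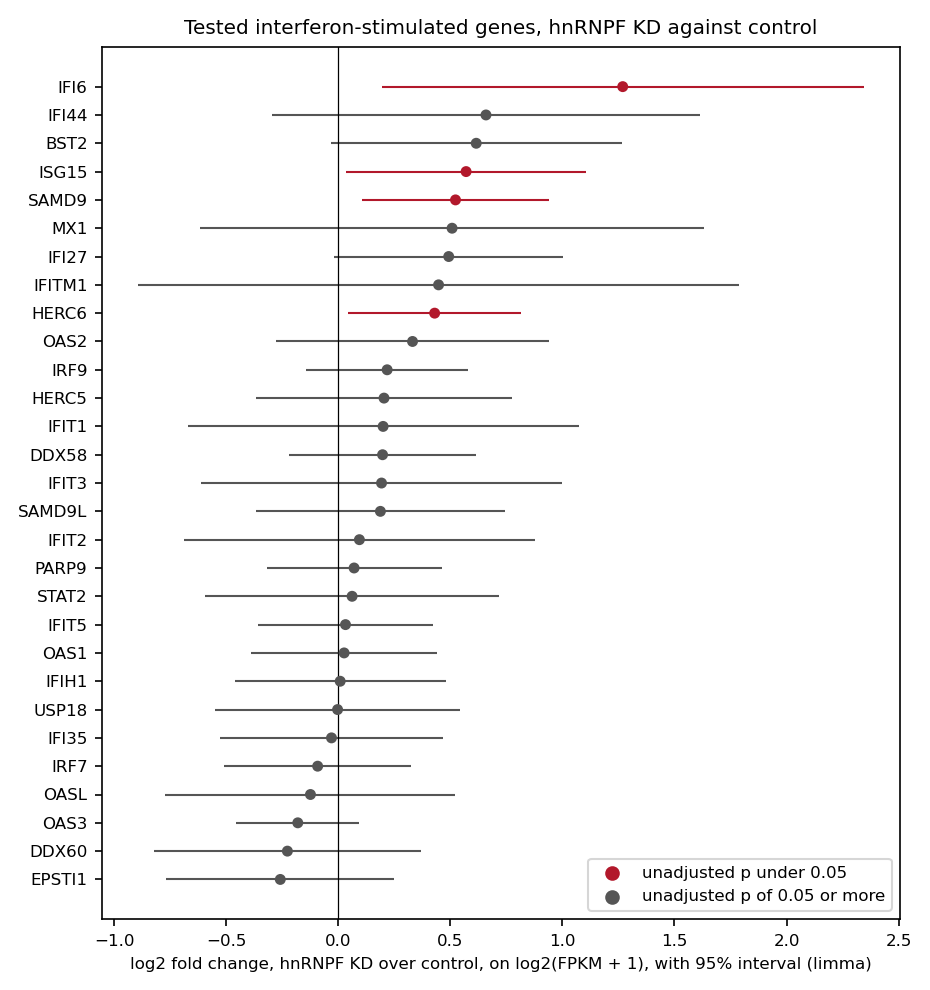
Log2 fold change of each of the 29 tested interferon-stimulated genes, hnRNPF KD over control on the log2(FPKM + 1) scale (x axis), with its 95% interval from limma; red marks an unadjusted p under 0.05. IFI6 stands at 1.27, most genes lie between -0.26 and 0.66, and 4 intervals exclude 0.

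Most of this difference rested on control 2. It held the lowest value of the 4 libraries for 25 of the 29 tested members, whereas it was lowest for 33.9% of all tested genes. It lay below control 1 for 28 of the 29, by a median of -0.39 on the log2 scale, against 67.7% of all tested genes and a median of -0.11. The exception was IFI6. Against control 1, hnRNPF KD 1 was higher for 14 of the 29 (median log2 difference -0.01) and hnRNPF KD 2 for 10 of the 29 (median -0.12). The shares over all tested genes were 48.8% and 34.7%. Against control 2, hnRNPF KD 1 was higher for 27 of the 29 (median 0.39) and hnRNPF KD 2 for 26 of the 29 (median 0.30). Here the shares over all tested genes were 65.9% and 51.0%. The medians over all tested genes in those comparisons were 0.00 and -0.11 against control 1, and 0.11 and 0.00 against control 2. Fitted without control 2, 12 of the 29 members had a log2 fold change above 0 and the median was -0.03. Without control 1, 27 of 29 were above 0 and the median was 0.37. Without hnRNPF KD 1 it was 0.05, with 18 of 29 above 0, and without hnRNPF KD 2 it was 0.25, with 23 of 29. Of all tested genes, 39.1% were above 0 without control 2 and 62.1% without control 1. That share was 39.7% without hnRNPF KD 1 and 60.8% without hnRNPF KD 2.

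**Figure D2:**
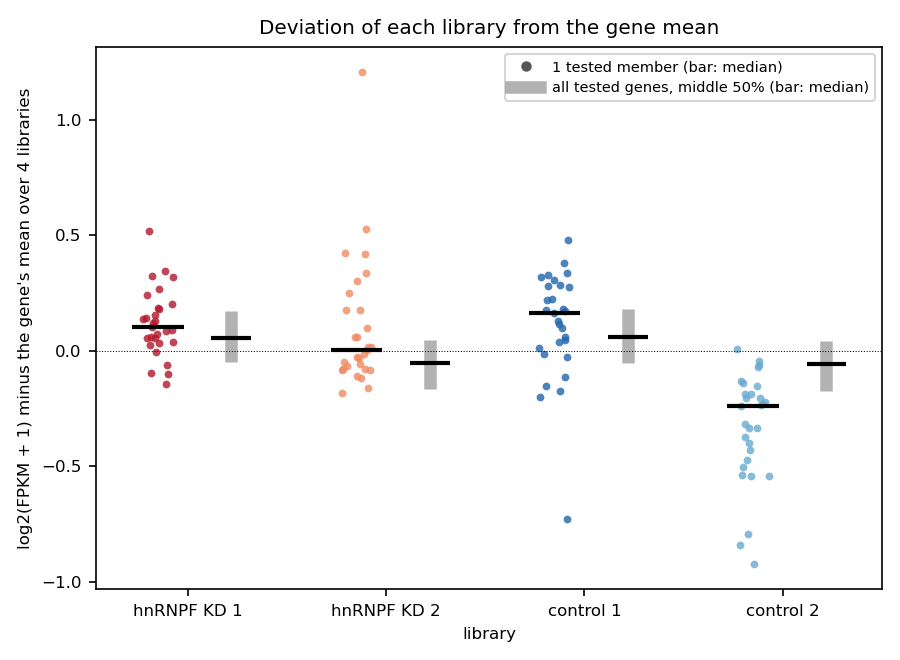
Deviation of each library from the gene's mean over the 4 libraries, in log2(FPKM + 1) (y axis), for the 29 tested members (points, black bar at the median) and for all 13110 tested genes (grey bar, middle 50%, black bar at the median). Members in control 2 have a median of -0.24, against 0.10 and 0.00 in hnRNPF KD 1 and 2 and 0.16 in control 1.

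**Figure D3:**
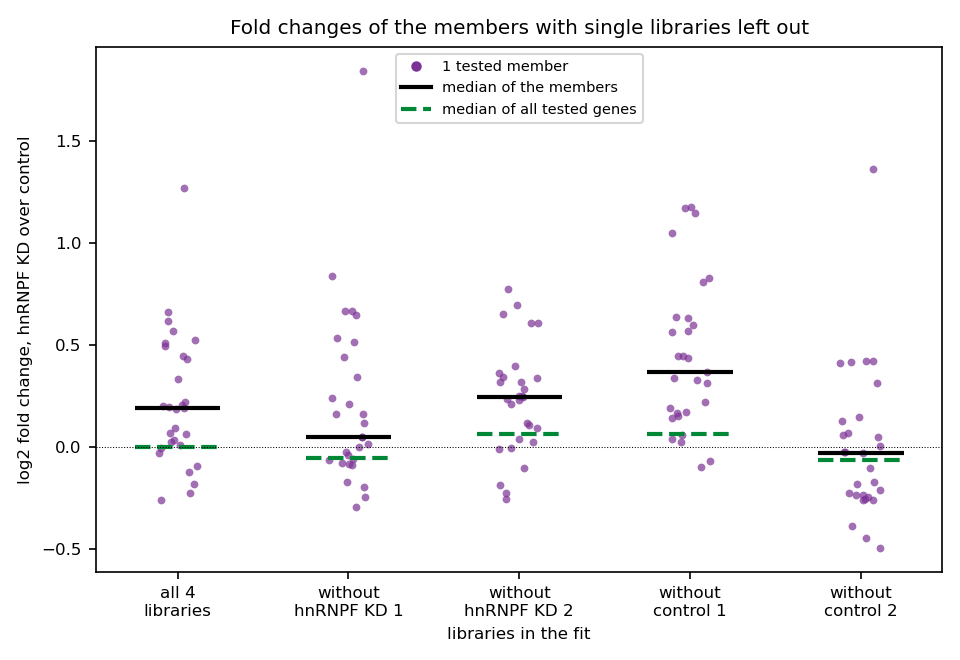
Log2 fold change of hnRNPF KD over control (y axis) for the 29 tested members (points) with all 4 libraries and with each library left out (x axis). The median of the members (black) moves from 0.19 with all libraries to -0.03 without control 2, next to the median of all tested genes (green, dashed, -0.06).

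Another measure moved with the same library. The 13 mitochondrially encoded transcripts, often used to follow RNA quality, summed to 31102 and 32440 FPKM in hnRNPF KD 1 and 2, and to 31978 and 24742 FPKM in control 1 and 2. Control 2 was the lowest library for 12 of these 13 genes, against 33.9% of all tested genes. Their part in the interferon-stimulated gene result was not tested.

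Absolute levels were low to moderate. Over the 4 libraries, 3 members averaged at least 10 FPKM (OAS3, STAT2 and ISG15), 26 lay between 1 and 10 FPKM, and 5 lay below 1 FPKM. The median of the 34 means was 3.46 FPKM. That of the 29 tested members was 4.26 FPKM, against 9.63 FPKM over all tested genes. OASL (1.02 FPKM) and SAMD9L (1.17 FPKM) were just inside the filter, and XAF1 (0.525 FPKM) and IFI44L (0.347 FPKM) just outside it. The highest library exceeded the lowest by a median of 1.78-fold over the tested members, against 1.35-fold over all tested genes. The controls differed by at least 2-fold from each other for 7 of the 29 (5.27% of all tested genes), and the hnRNPF KD libraries for 1 of the 29 (4.70%).

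**Figure D4:**
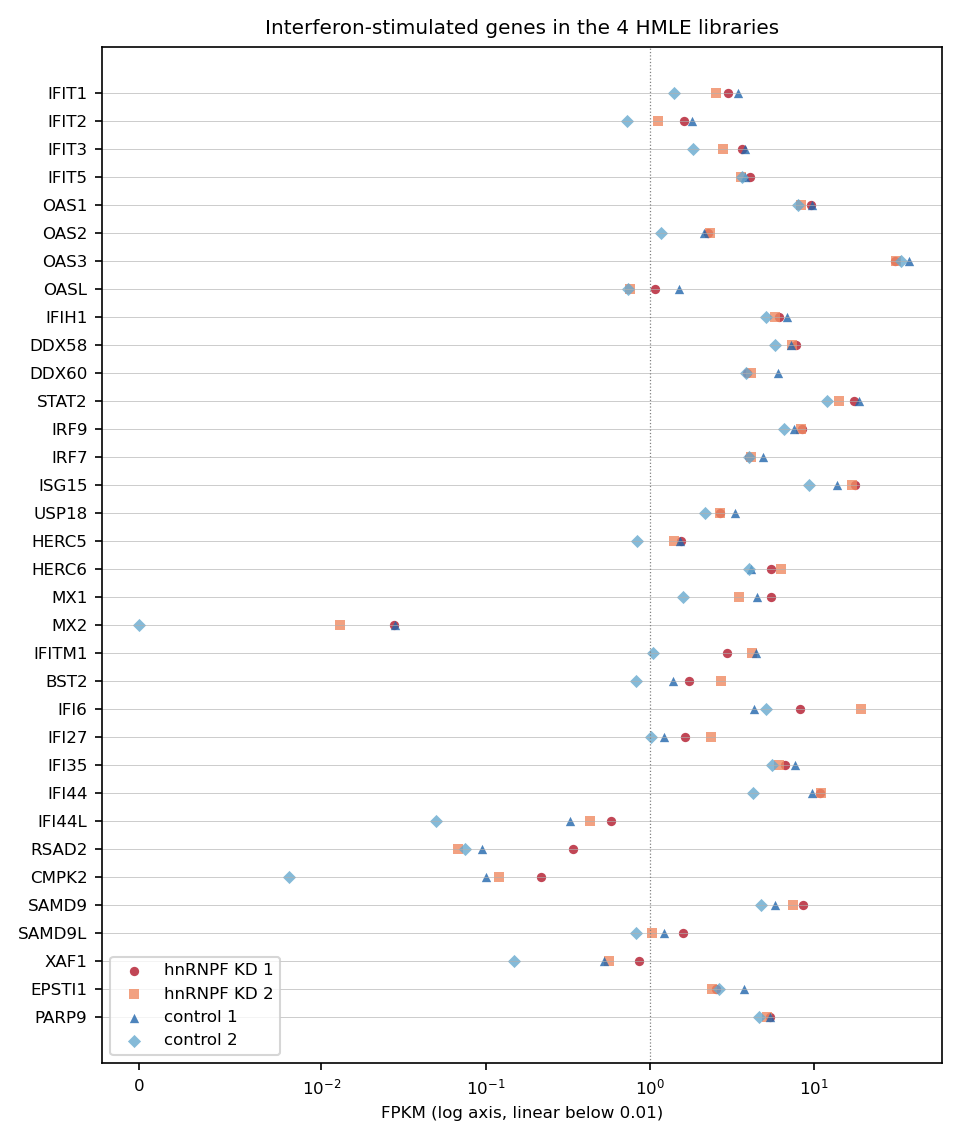
FPKM of the 34 interferon-stimulated genes in each library (x axis, log scale, linear below 0.01); the dotted line marks 1 FPKM. Control 2 (light blue diamonds) is the lowest library for 29 of the 34 genes, and IFI6 in hnRNPF KD 2 (19.4 FPKM) is the point farthest to the right of its own controls among the tested genes.

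IFI6 had the largest log2 fold change of the tested members. It encodes a small membrane protein that protects cells from flavivirus replication and from apoptosis, and lies at chr1:27992572-27998729 on the minus strand (GRCh37). It stood at 8.19 and 19.4 FPKM in hnRNPF KD 1 and 2, against 4.32 and 5.06 FPKM in control 1 and 2. Both hnRNPF KD libraries were above both controls, and hnRNPF KD 2 was far above hnRNPF KD 1. The means were 13.8 ± 7.9 and 4.69 ± 0.525 FPKM (SD, n = 2 each), 2.94-fold apart. On the log2 scale the difference was 1.27 (SE 0.405, limma, adjusted p = 0.789). Without hnRNPF KD 2 it was 0.70, and over the samples left out singly it ranged up to 1.84, without hnRNPF KD 1. The opposite-strand gene whose locus overlaps IFI6 was listed at 0 in all 4 libraries.

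IFI27, a homologue of IFI6 with a related hydrophobic domain, was at 1.63 and 2.35 FPKM in hnRNPF KD, against 1.22 and 1.01 FPKM in the controls. Again both hnRNPF KD libraries were higher and hnRNPF KD 2 was the highest of the 4. This gave a log2 fold change of 0.49 (SE 0.193, limma, adjusted p = 0.83). BST2, or tetherin, holds budding virus particles at the cell surface. It stood at 1.74 and 2.72 FPKM in hnRNPF KD, against 1.38 and 0.82 FPKM in the controls, with hnRNPF KD 2 highest and no overlap. Its log2 fold change was 0.62 (SE 0.245, limma, adjusted p = 0.83). IFITM1, a membrane protein that restricts viral fusion, had overlapping groups. It was at 2.96 and 4.21 FPKM in hnRNPF KD, against 4.42 and 1.05 FPKM in the controls. The controls were the highest and the lowest of the 4 libraries, so the log2 fold change of 0.45 became -0.25 without control 2.

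The genes of ISG15 conjugation showed a mixed picture. ISG15 is a ubiquitin-like protein that is secreted or attached to other proteins. It was at 17.8 and 16.9 FPKM in hnRNPF KD, against 13.8 and 9.35 FPKM in the controls. The groups did not overlap and the hnRNPF KD values lay close together. The log2 fold change was 0.57 (SE 0.201, limma, adjusted p = 0.808), and it was 0.31 without control 2. HERC6 encodes a HECT ubiquitin ligase whose mouse counterpart attaches ISG15. It was at 5.46 and 6.27 FPKM in hnRNPF KD, against 4.14 and 4.04 FPKM in the controls, without overlap and with controls that nearly coincided. Its log2 fold change was 0.43 (SE 0.145, limma, adjusted p = 0.805) and stayed between 0.34 and 0.52 when single libraries were left out. HERC5, the main ISG15 ligase in human cells, was at 1.55 and 1.41 FPKM in hnRNPF KD, against 1.52 and 0.832 FPKM in the controls. Control 1 lay between the hnRNPF KD values, and only control 2 was apart. USP18 removes ISG15 and also dampens the type I receptor. It was at 2.66 and 2.69 FPKM in hnRNPF KD, against 3.30 and 2.15 FPKM in the controls, so the controls lay on either side.

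SAMD9 and SAMD9L are neighbouring genes on chromosome 7 that encode growth-restraining antiviral proteins. SAMD9 had the smallest p of the set and was at 8.51 and 7.46 FPKM in hnRNPF KD, against 5.74 and 4.78 FPKM in the controls. The groups did not overlap. The log2 fold change was 0.52 (SE 0.156, limma, adjusted p = 0.772) and stayed between 0.41 and 0.63 when single libraries were left out. SAMD9L was at 1.59 and 1.04 FPKM in hnRNPF KD, against 1.22 and 0.83 FPKM in the controls, and its groups overlapped. XAF1, a pro-apoptotic partner of the inhibitor XIAP, was at 0.863 and 0.563 FPKM in hnRNPF KD, against 0.525 and 0.148 FPKM in the controls. It was too low to be tested, and control 1 and hnRNPF KD 2 nearly coincided.

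The IFIT genes encode proteins that bind viral RNA, IFIT1 through its cap structure, and sit together on chromosome 10. IFIT1 was at 2.97 and 2.54 FPKM in hnRNPF KD, against 3.42 and 1.41 FPKM in the controls. IFIT2 was at 1.62 and 1.12 FPKM in hnRNPF KD, against 1.82 and 0.729 FPKM in the controls. IFIT3, which stabilizes IFIT1 on RNA, was at 3.65 and 2.80 FPKM in hnRNPF KD, against 3.77 and 1.83 FPKM in the controls. In all 3 the controls enclosed both hnRNPF KD values, with control 1 highest and control 2 lowest. Their log2 fold changes of 0.20, 0.09 and 0.19 became -0.24, -0.26 and -0.18 without control 2. IFIT5 was at 4.06 and 3.57 FPKM in hnRNPF KD, against 3.79 and 3.62 FPKM in the controls, with a 95% interval of the log2 difference from -0.36 to 0.42. IFIT1, IFIT2 and IFIT3 share their loci with LIPA on the opposite strand, at 29.7 and 35.9 FPKM in hnRNPF KD and 30.8 and 24.1 FPKM in the controls. The libraries were stranded, but the strand setting of the counting is not given in the sources used here.

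The oligoadenylate synthetases make the second messenger that activates RNase L when they bind double-stranded RNA. OAS1, OAS3 and OAS2 lie side by side on chromosome 12, and the 95% intervals of their log2 differences overlapped. OAS3, the most abundant member of the whole set, was at 31.1 and 31.5 FPKM in hnRNPF KD, against 37.8 and 33.6 FPKM in the controls. It was 1 of 2 members with both hnRNPF KD libraries below both controls (log2 fold change -0.18, SE 0.103, limma, adjusted p = 0.902). OAS1 was at 9.57 and 8.32 FPKM in hnRNPF KD, against 9.65 and 7.92 FPKM in the controls, enclosed by them. OAS2 was at 2.26 and 2.32 FPKM in hnRNPF KD, against 2.14 and 1.18 FPKM in the controls. Its groups did not overlap, but control 1 was close to the hnRNPF KD values. OASL, which lacks synthetase activity and aids RNA sensing, was at 1.08 and 0.76 FPKM in hnRNPF KD, against 1.504 and 0.735 FPKM in the controls.

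Among the RNA sensors, DDX58, which encodes RIG-I, was at 7.76 and 7.32 FPKM in hnRNPF KD, against 7.20 and 5.77 FPKM in the controls. The groups were separate only by the narrow gap between hnRNPF KD 2 and control 1. IFIH1, which encodes the long double-stranded RNA sensor MDA5, was at 6.12 and 5.82 FPKM in hnRNPF KD, against 6.85 and 5.11 FPKM in the controls. Its mean difference was near 0, with a 95% interval from -0.46 to 0.48 on the log2 scale. DDX60, a helicase linked to RIG-I signalling, was at 3.89 and 4.10 FPKM in hnRNPF KD, against 6.04 and 3.86 FPKM in the controls. Here control 1 was the library apart, and the other 3 lay within a narrow range.

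Of the 3 transcription factors, only IRF9 had groups that did not overlap. STAT2 was at 17.6 and 14.1 FPKM in hnRNPF KD, against 18.9 and 12.01 FPKM in the controls, which enclosed both hnRNPF KD values. IRF9, the DNA-binding subunit of ISGF3, was at 8.39 and 8.26 FPKM in hnRNPF KD, against 7.55 and 6.52 FPKM in the controls, without overlap (log2 fold change 0.22, SE 0.137, limma, adjusted p = 0.916). IRF7, which drives interferon-alpha genes, was at 4.03 and 4.13 FPKM in hnRNPF KD, against 4.88 and 3.99 FPKM in the controls, and the groups overlapped.

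Control 2 was far from the other 3 libraries for the GTPase MX1 and for IFI44. MX1, which blocks replication of influenza and other viruses, was at 5.46 and 3.47 FPKM in hnRNPF KD, against 4.49 and 1.60 FPKM in the controls. Its log2 fold change of 0.51 was -0.03 without control 2. IFI44 was at 10.8 and 10.9 FPKM in hnRNPF KD, against 9.71 and 4.27 FPKM in the controls. Its log2 fold change was 0.66 (SE 0.36, limma, adjusted p = 0.896) and 0.15 without control 2. The paralogue IFI44L beside it on chromosome 1 was at 0.579 and 0.433 FPKM in hnRNPF KD, against 0.327 and 0.0497 FPKM in the controls. It had the same order of groups at a level too low to be tested. MX2, which sits at nuclear pores and blocks nuclear entry of HIV, was at 0.0276 and 0.0131 FPKM in hnRNPF KD, against 0.028 FPKM in control 1, and was listed at 0 in control 2.

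RSAD2, which encodes viperin, and its neighbour CMPK2, a mitochondrial nucleotide kinase, were barely present. RSAD2 was at 0.339 and 0.0679 FPKM in hnRNPF KD, against 0.0955 and 0.0749 FPKM in the controls, and only hnRNPF KD 1 was apart. CMPK2 was at 0.218 and 0.121 FPKM in hnRNPF KD, against 0.101 and 0.00823 FPKM in the controls. The remaining members were EPSTI1, IFI35 and PARP9. EPSTI1 was at 2.54 and 2.38 FPKM in hnRNPF KD, against 3.72 and 2.63 FPKM in the controls, the other member with both hnRNPF KD libraries below both controls (log2 fold change -0.26, SE 0.191, limma, adjusted p = 0.927). IFI35 was at 6.62 and 6.09 FPKM in hnRNPF KD, against 7.65 and 5.52 FPKM in the controls. PARP9, a macrodomain protein that works with the ligase DTX3L, was at 5.36 and 5.19 FPKM in hnRNPF KD, against 5.39 and 4.59 FPKM in the controls. The controls enclosed the hnRNPF KD values for both.

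Upstream of these genes, interferons themselves were scarcely detected. Of 22 listed ligand genes, 16 were at 0 in all 4 libraries and 1, IFNE, was tested. IFNE, an interferon made constitutively by epithelia of the reproductive tract, was at 3.14 and 1.13 FPKM in hnRNPF KD, against 2.19 and 0.918 FPKM in the controls. It was higher in libraries numbered 1, in both groups. IFNB1 was at 0.0188 and 0.0951 FPKM in hnRNPF KD, against 0 and 0.0401 FPKM in the controls. IFNL1 was at 0.029 and 0 FPKM in hnRNPF KD, against 0.03 and 0 FPKM in the controls, and IFNG was listed at 0 throughout. The keratinocyte interferon IFNK was at 0.196 and 0.175 FPKM in hnRNPF KD, against 0.0113 and 0.167 FPKM in the controls. IFNA5 and IFNW1 were above 0 in 1 library each, at 0.00767 FPKM in hnRNPF KD 1 and 0.00609 FPKM in hnRNPF KD 2.

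All 6 receptor genes were expressed, with 0 passing in either direction. The type I receptor genes IFNAR1 and IFNAR2 stood at 10.7 and 11.4 FPKM and at 12.2 and 9.81 FPKM in hnRNPF KD, against 11.2 and 11.9 FPKM and 10.8 and 9.01 FPKM in the controls. Of the type III receptor, IFNLR1 was at 7.27 and 5.68 FPKM in hnRNPF KD, against 6.02 and 5.61 FPKM in the controls. IL10RB, its shared chain, was at 9.72 and 10.3 FPKM in hnRNPF KD, against 13.7 and 13.7 FPKM in the controls. The groups were apart with little spread, and the log2 fold change was -0.41 (SE 0.112, limma, adjusted p = 0.743). The interferon-gamma receptor gene IFNGR1 was at 34.7 and 38.3 FPKM in hnRNPF KD, against 31.3 and 33.7 FPKM in the controls. IFNGR2 was at 48.1 and 41.7 FPKM in hnRNPF KD, against 40.2 and 43.9 FPKM in the controls.

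The kinases and STATs outside the set also had 0 of 4 passing in either direction. TYK2 was at 34.8 and 26.8 FPKM in hnRNPF KD, against 43.9 and 35.6 FPKM in the controls, with both hnRNPF KD libraries below both controls (log2 fold change -0.36, SE 0.179, limma, adjusted p = 0.876). JAK1 was at 28.8 and 26.7 FPKM in hnRNPF KD, against 28.3 and 24.7 FPKM in the controls. JAK2, which serves other cytokines too, was at 2.63 and 2.71 FPKM in hnRNPF KD, against 2.24 and 2.32 FPKM in the controls. STAT3, which also serves other cytokines, was at 33.3 and 34.6 FPKM in hnRNPF KD, against 37.3 and 35.7 FPKM in the controls.

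Of the 13 tested sensors and adaptors, 0 passed in either direction, and the 2 with the smallest p were MYD88 and IRF3. MYD88, the adaptor of most Toll-like receptors and of the interleukin-1 receptor, was at 9.32 and 10.2 FPKM in hnRNPF KD, against 5.30 and 4.10 FPKM in the controls. The groups were well apart, and the log2 fold change of 0.92 (SE 0.165, limma, adjusted p = 0.54) was larger than that of every member except IFI6. IRF3, which switches on IFNB1 after nucleic acid sensing, was at 28.2 and 26.7 FPKM in hnRNPF KD, against 33.8 and 31.9 FPKM in the controls (log2 fold change -0.25, SE 0.0966, limma, adjusted p = 0.824).

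A further 32 tested interferon-induced genes outside the set showed 0 calls, 18 log2 fold changes above 0 (50.2% of all tested genes) and a median of 0.04. Both hnRNPF KD libraries were above both controls for 5 and below for 3, against 17.5% and 17.1% of all tested genes. Control 2 was the lowest library for 17 of these 32, against 33.9% of all tested genes. The 2 with the smallest p were the membrane restriction factors IFITM3 and IFITM2, neighbours of IFITM1. IFITM3 was at 127 FPKM in each hnRNPF KD library, against 112 and 114 FPKM in the controls, and IFITM2 was at 24.5 and 18.04 FPKM in hnRNPF KD, against 18.3 and 12.1 FPKM in the controls.

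Of genes that respond chiefly to interferon-gamma, 8 were tested and 0 passed in either direction, with 5 above 0 (50.2% of all tested genes) and a median of 0.13. The 2 with the smallest p were the guanylate-binding proteins GBP2 and GBP1. GBP2 was at 1.43 and 2.39 FPKM in hnRNPF KD, against 0.985 and 0.905 FPKM in the controls, with the same library order at the top as IFI27 and BST2. GBP1 was at 6.37 and 7.37 FPKM in hnRNPF KD, against 5.62 and 6.12 FPKM in the controls. Among 7 feedback inhibitors 0 passed in either direction. CISH, a suppressor of cytokine signalling through STAT5, was at 3.41 and 3.70 FPKM in hnRNPF KD, against 1.78 and 2.11 FPKM in the controls. Its groups did not overlap (log2 fold change 0.63, SE 0.156, limma, adjusted p = 0.683). The phosphatase gene PTPN2 was at 16.8 and 13.6 FPKM in hnRNPF KD, against 16.9 and 19.6 FPKM in the controls.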

How the data were processed

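PolyA-selected RNA of 2 hnRNPF knockdown and 2 control libraries was sequenced, per the labels' protocols as stranded paired-end TruSeq libraries. The deposited table gives FPKM per gene and sample, per the file headers. Cuffdiff 2.2.1, STAR 2.5.3a and the build GRCh37 are listed, with no roles, per the submitters' processing notes; the annotation release is not given in the sources used here. Samples were grouped by title. Where genes overlap or have near-identical copies, FPKM also reflect how the counting split fragments between them.

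Between 42.3% and 44.9% of low single-exon values were whole multiples of the lowest step within 0.02, so reads were not recovered, no count test was run, and fragment totals are estimates. Lengths came from GENCODE 29. The 13110 genes averaging 1 FPKM or more were fitted as log2(FPKM + 1) with limma 3.58.1 in R 4.3.3 (empirical Bayes with intensity trend, 4 samples, no covariate, two-sided, Benjamini-Hochberg over all tested genes at 0.05). Tested on 10 simulated tables of 13110 genes with 200 changed, the fit recovered 56.9% of 2-fold and 97.5% of 4-fold changes. A mean of 10.9 unchanged genes a table were called as well. Noise was drawn there independently for each gene and library, without shifts shared by the genes of a library. Its variances were those already shrunk by the empirical Bayes step. The 200 changed genes also eased the Benjamini-Hochberg threshold, whereas 1 gene was called in the data. The rates may therefore be too high for these data, where 0 genes were called higher at log2 fold changes up to 2.73. Fold in the text is a ratio of mean FPKM. Alternatives were other pseudocounts, filters, scalings and variance settings, the replicate number as a block, single samples left out, and sums over overlapping loci.

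The members and gene lists were chosen with earlier results of these data known. Every member is named, as are the ligands above 0, the receptors and the STATs, and, from the other lists of interferon pathway genes, the 2 tested genes with the smallest p. Promoter sequences are from RefSeq (GRCh38.p14) and gene coordinates from the deposited table (GRCh37). Python 3.11.15, pandas 2.3.3 and matplotlib 3.10.9 were used. Some genes of the lists are not reported here.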

Additional observations from a re-analysis of the deposited data

How the results depend on the processing

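The counts of 0 interferon-stimulated genes called higher and 0 called lower held in every alternative run. The smallest adjusted p of any member was 0.284 (SAMD9, limma with the replicate block). With the replicate block 6 members were higher at an unadjusted p under 0.05, against 4 without it, and the median log2 fold change stayed at 0.19. Over all 13110 tested genes, 1790 had an unadjusted p under 0.05 in either direction with the block, against 797 without it. Same-numbered samples deviated together over all tested genes (r = 0.39), but the labels do not say what the number marks. Over all genes the count of lower genes was 0, not 1, with no filter, without the intensity trend and with the replicate block. It ranged from 0 to 1 when single samples were left out, as did the count of higher genes, which was 1 without hnRNPF KD 2. In those fits the lone sample of a group is assumed to vary like the other group. The members' median log2 fold change was 0.15 to 0.24 under the pseudocounts, filters at 1 FPKM or none, and scalings, 0.13 for the 12 members at 5 FPKM, and -0.032 to 0.37 with single samples left out. IFIH1 was -0.019 with quantile normalization and USP18 0.00309 with a pseudocount of 0.1 FPKM, both with the sign turned; the cause was not tested.

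With single samples left out the sign turned for 16 members; for DDX60, OASL and IRF7 it turned without control 1 alone. The ranges of log2 fold change were -0.49 to 0.040 for DDX60, -0.027 to 0.43 for HERC5, -0.23 to 0.17 for IFI35, -0.17 to 0.19 for IFIH1, -0.24 to 0.64 for IFIT1, -0.26 to 0.45 for IFIT2, -0.18 to 0.57 for IFIT3 and -0.042 to 0.11 for IFIT5. They were -0.25 to 1.15 for IFITM1, -0.21 to 0.026 for IRF7, -0.032 to 1.05 for MX1, -0.10 to 0.15 for OAS1, -0.39 to 0.14 for OASL, -0.026 to 0.17 for PARP9, -0.24 to 0.37 for STAT2 and -0.23 to 0.22 for USP18. The other 13 kept their sign. With 2 libraries a group and no read counts, the fit called only HNRNPF, 8.71-fold lower in hnRNPF KD by mean FPKM. The absence of calls among the members therefore does not exclude changes of 2-fold or more. IFI6 and MYD88, 2.94-fold and 2.07-fold higher in hnRNPF KD by mean FPKM, did not pass (limma, adjusted p = 0.789 and adjusted p = 0.54).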

Other observations

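Several members have neighbours whose loci meet their own. PARP9 shares its start region with DTX3L on the opposite strand, which encodes its partner ligase. DTX3L was at 8.90 and 8.44 FPKM in hnRNPF KD, against 9.91 and 8.10 FPKM in the controls, so in both genes of the pair the controls enclosed the hnRNPF KD values. The locus of IFITM1 overlaps that of IFITM2 on the same strand, and the 2 genes are close in sequence, so fragments may be shared between them. The log2 fold change of IFITM1 was 0.45 alone and 0.49 in the sum. For IFIT1, IFIT2 and IFIT3 summed with LIPA it was 0.25 in each, against 0.20, 0.09 and 0.19 alone. LIPA makes up most of those sums. For IFI6, DDX60, EPSTI1, HERC5 and MX1 the overlapping genes were listed at 0 in all 4 libraries.

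hnRNP F recognises short G-rich runs in RNA. In the longest GENCODE 29 transcript of each gene, the run GGGA occurred a median of 4.43 times per kilobase in the 29 tested members and 4.94 times in all tested genes with a transcript. The middle 50% spanned 3.36 to 6.15 in the members and 3.57 to 6.66 in all tested genes. The GC content had a median of 47.0% in the members and 48.2% in all tested genes. These are descriptions of annotated sequence, not of binding.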
